A study of Mus musculus with 12 samples.

Results

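FMRP, its relatives and partners, and the CPEB proteins are regulators that help set which neuronal transcripts are translated. Their own transcripts are described here in RNA that sediments with ribosomes from mouse hippocampus. The 10 genes (Fmr1, Fxr1, Fxr2, Cyfip1, Cyfip2, Cpeb1, Cpeb2, Cpeb3, Cpeb4 and Caprin1) were chosen by name for their function, and all 10 were found among the 24421 gene symbols of the deposited count tables. The 12 libraries form a fear case group and a control group, with 6 in each. All mice were C57/Bl6, 6 weeks old at collection and housed alone for 2 days beforehand, and no transgene or drug is named. One protocol text covers every library: mice spent 8 min in a context new to them and 7 min back in their own cage before the hippocampus was taken at 15 min. How the control mice differed, whether a shock was given, the sex of the mice and whether each library is 1 mouse are not given in the labels, so p-values measure the spread between these libraries.

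FMRP, encoded by Fmr1, binds messenger RNAs on polyribosomes and mostly represses their translation, and its loss causes fragile X syndrome in people. CYFIP1 bridges FMRP to the cap-binding protein eIF4E, and both CYFIP proteins also sit in the WAVE complex, which drives branched actin assembly. CPEB proteins bind U-rich elements in 3′ untranslated regions and repress or activate those messages through their poly(A) tails, a step long studied in synaptic plasticity.

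The 3′ untranslated regions of the 10 transcripts were searched for the cytoplasmic polyadenylation element, the site CPEB1 binds, as TTTTAT or TTTTAAT on the transcript strand. The 4 windows shown carry the element, in capitals, nearest the annotated 3′ end of the transcripts in which it lies closest to that end or is densest. The reverse strand was not searched. The sequences, in GRCm38, are from GENCODE vM21.
Fmr1, chrX:68717917-68717946, plus strand: ctagatgtaaatTTTTATtaaaaagttgca
Cyfip1, chr7:55932573-55932602, plus strand: tcacaaatgtacaTTTTAATgttcatcacc
Cpeb2, chr5:43289554-43289583, plus strand: taatttagtttaTTTTATtgttatcttcca
Cpeb4, chr11:31935406-31935435, plus strand: gggtaattcattTTTTATtaaagtcatttt
The element ended 29 bases before the annotated end in Fmr1 and 10 bases before it in Cyfip1. The last 50 bases held 1 polyadenylation signal (AATAAA or ATTAAA) in Fmr1 and 0 in Cyfip1. The annotated end of Cyfip1 is therefore not shown to be a site of poly(A) addition. Fmr1 and Cyfip1 were the 2 of 10 genes with an element in the last 150 bases, against 24.9% of the 12506 tested genes that have such a window.

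Over the whole 3′ untranslated region, Cpeb2 had 24 elements in 3778 bases, or 6.35 per kb, and Cpeb4 had 17 in 4102 bases, or 4.14 per kb. Among 7534 tested genes with a 3′ untranslated region of at least 1000 bases the median was 1.08 per kb, and 99.9% of them lay below Cpeb2 and 98.0% below Cpeb4. The regions of Cpeb2 and Cpeb4 were 66.6% and 65.7% A or T, against a median of 56.4%. That of Fmr1 was 68.8%, Fxr1 65.5%, Caprin1 63.6%, Cyfip1 61.8%, Cpeb3 60.6%, Cpeb1 58.3%, Cyfip2 55.0% and Fxr2 43.8%. The part of base content in the number of elements was not tested. Cpeb1 had 3.04 per kb, Fmr1 1.75, Cpeb3 1.68, Caprin1 1.56, Cyfip1 1.23, Fxr1 0.720 and Cyfip2 0.408, while Fxr2 had 0 in 598 bases. A match is a description of the letters and not evidence of binding.

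The libraries held 18.6 M to 44.2 M gene counts (median 21.6 M), and fear case 6 was the deepest. The ribosomal RNA precursor Rn45s took 12.5% of the counts in fear case 6, the highest share of the 12 libraries, whose median was 5.69%. Hippocampal neuron markers, among them the dentate granule cell factor Prox1 and the CA1 gene Wfs1, were present in every library. The sum of 10 of them was 4571 to 4856 CPM (counts per M, scaled by TMM) in fear case and 4275 to 4762 CPM in control. Snap25 made up most of that sum, at a mean of 3011 CPM beside 120 CPM for Prox1 and 71.1 CPM for Wfs1. The sum therefore says little about single subfields. The sum of 17 markers of the choroid plexus, the epithelium of the brain ventricles, ranged from 117 to 2235 CPM in fear case and from 1084 to 2961 CPM in control. Folr1, Otx2, Aqp1 and Steap1 had 0 counts in fear case 2, and Slc4a5 and Steap1 had 0 counts in fear case 4. The mean log2 CPM of those 17 genes was -0.33 to 2.78 in fear case 1 to 5, 4.34 in fear case 6 and 3.59 to 4.67 in the controls. Sums of the astrocyte markers were 1220 to 2233 CPM in fear case and 1291 to 1806 CPM in control, of the oligodendrocyte markers 1621 to 2415 CPM and 1781 to 2396 CPM in the same groups, of the microglia markers 34.0 to 53.1 CPM and 37.1 to 63.9 CPM, and of the endothelial markers 7.03 to 16.7 CPM and 9.84 to 15.0 CPM. Fos, the activity-induced AP-1 subunit, averaged 20.9 ± 7.21 CPM in fear case and 4.38 ± 1.597 CPM in control (SD, n = 6 each, edgeR quasi-likelihood adjusted p = 1.1e-05). Fos was chosen with earlier results of these data known, so its difference is no independent check of the group labels.

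None of the 10 regulators passed the test for a difference between fear case and control. Their log2 fold changes ran from -0.059 for Cpeb2 to 0.14 for Fmr1, and every 95% interval lay between -0.23 and 0.29, that is between 0.852-fold and 1.23-fold. With edgeR's quasi-likelihood test, Benjamini-Hochberg adjusted over 14564 genes, 0 of 10 passed at 0.05, against 0.103% of all genes tested. At an unadjusted p under 0.05 the count was 0 of 10 with edgeR, DESeq2 and limma-voom alike, against 7.14% of all genes with edgeR, and the adjusted p with edgeR ranged from 0.720 to 0.992. The fear case and control values overlapped for all 10, where 0.597% of all genes tested had groups that did not overlap (0.268% higher and 0.330% lower in fear case). Of the 10, 8 had a positive log2 fold change, with a median of 0.069 beside -0.0046 over all genes tested, of which 48.6% were positive. Without fear case 6 the median of the 10 was 0.034, and 0 of 10 passed. In whole tissue, fewer cells of a type and less RNA per cell cannot be told apart, and no unfractionated RNA was analysed here, so a level reflects transcript amount and ribosome association together.

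**Figure D1:**
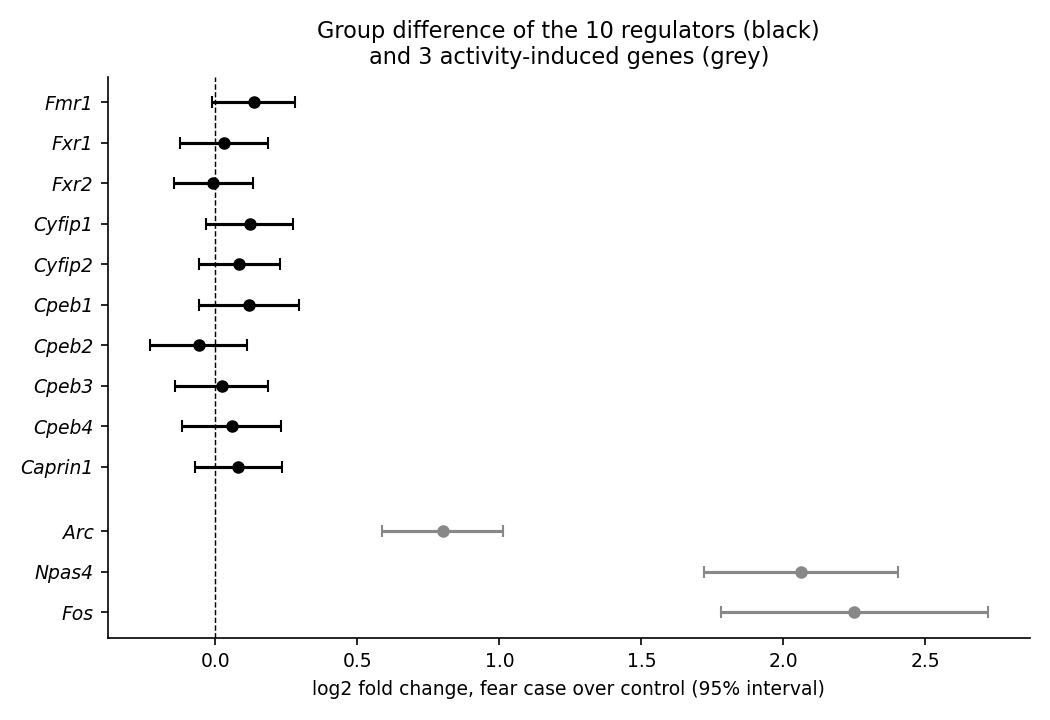
The x axis gives the log2 fold change of fear case over control and the y axis the gene, with points for the estimate and bars for the 95% interval of the quasi-likelihood fit. Intervals of the 10 regulators, in black, all include 0 and stay between -0.23 and 0.29, while those of Arc, Npas4 and Fos, in grey, lie above 0.58.

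Per kilobase of transcript, Cyfip2 stood far above the other 9 genes. Its level was 239 ± 13.6 CPM per kb in fear case and 226 ± 19.9 CPM per kb in control (SD, n = 6 each), 5.31 times that of Caprin1, the next gene, over all 12 libraries. Caprin1 at 43.8, Cpeb4 at 39.1, Fxr1 at 33.4, Fxr2 at 33.3 and Fmr1 at 29.9 CPM per kb, as means over the 12 libraries, formed a middle group. Neighbours in that order had overlapping ranges, although Caprin1 exceeded Cpeb4 in 11 of 12 libraries, Cpeb4 exceeded Fxr1 in 10, Fxr1 exceeded Fxr2 in 7 and Fxr2 exceeded Fmr1 in 11. The ends of the group did not overlap, with Caprin1 at 37.8 or more and Fmr1 at 36.7 CPM per kb or less. Fmr1 stood above Cpeb3 in 12 of 12 libraries without overlap of the ranges. Cpeb3 at 17.7, Cpeb2 at 12.99 and Cyfip1 at 11.04 CPM per kb followed, and neighbours in that order had overlapping ranges. Cpeb3 exceeded Cpeb2 in 12 of 12 libraries, and Cpeb2 exceeded Cyfip1 in 11. Cpeb3, at 14.96 or more, did not overlap Cyfip1, at 12.76 or less. Cpeb1 was lowest at 7.56 CPM per kb, and its range did not overlap that of Cyfip1. Lengths are those of the longest complete coding transcript in GENCODE vM21, and the sources used here do not name the annotation the authors used. With the length of all annotated exons instead, a choice made after the data were seen, Cyfip2 stayed first at 218 and Cpeb1 last at 5.61 CPM per kb. Cpeb4 at 38.7 then exceeded Caprin1 at 26.5, Fxr2 at 26.1 exceeded Fxr1 at 15.4, and the ranges of Fmr1 and Cpeb3 and of Cyfip1 and Cpeb1 overlapped.

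**Figure D2:**
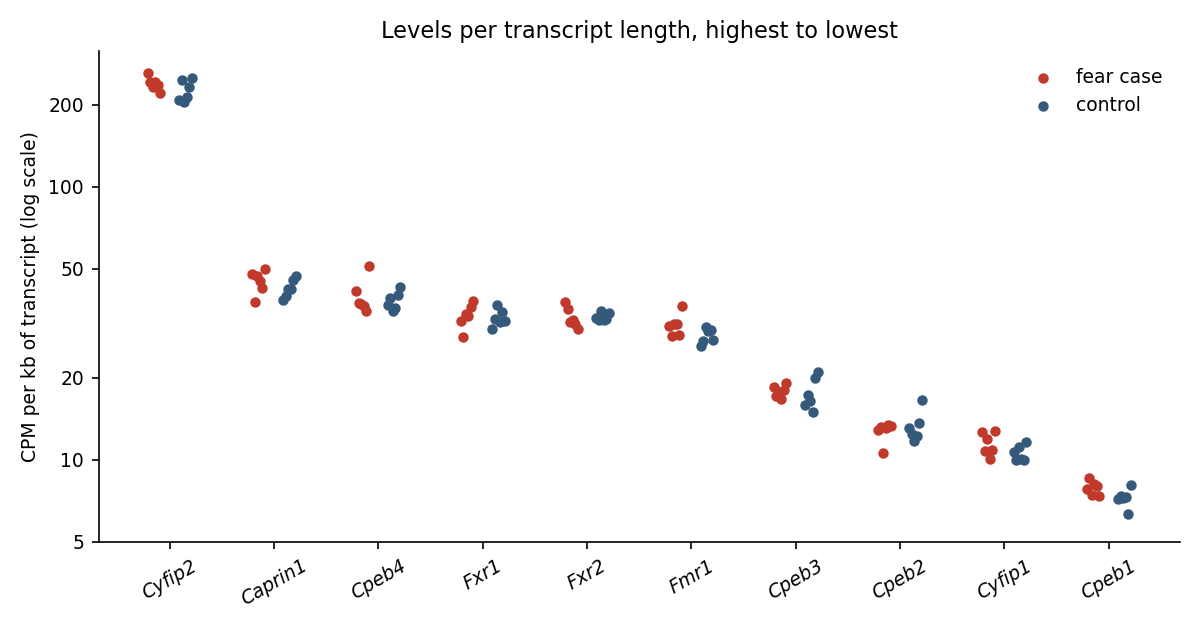
The y axis gives the level in CPM per kb of transcript on a log scale and the x axis the 10 genes from highest to lowest mean, with 1 point per library. Cyfip2 lies between 204 and 262 CPM per kb, Cpeb1 between 6.33 and 8.55, and the fear case and control points of each gene overlap.

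Fmr1 lies on chromosome X from 68678541 to 68717963 on the plus strand (GRCm38, the assembly also called mm10). It had 125 CPM in its lowest fear case library, a median of 137 CPM and 162 CPM in its highest, against 115, 126 and 135 CPM in control. In 4 of 6 fear case libraries Fmr1 lay above all controls, and the other two lay inside the control range. The mean was 138 ± 13.3 CPM in fear case and 125 ± 7.97 CPM in control (SD, n = 6 each), which is 0.14 as a log2 fold change (SE 0.071, 95% interval -0.011 to 0.28, edgeR adjusted p = 0.720). Fmr1 was highest in fear case 6, and without that library its log2 fold change was 0.082 (adjusted p = 0.794).

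Fxr1 and Fxr2 encode autosomal paralogs of FMRP that bind it and associate with ribosomes. Fxr1 (chromosome 3, 34019943 to 34070322, plus strand) ranged from 85.0 through a median of 102 to 115 CPM in fear case, against 90.5, 97.7 and 111 CPM in control. The log2 fold change of Fxr1 was 0.031 (SE 0.075, adjusted p = 0.958). The control range of Fxr1 lay inside that of fear case, with fear case 2 the lowest and fear case 6 the highest library. Fxr2 (chromosome 11, 69632990 to 69653297, plus strand) ranged from 88.8 through 95.2 to 112 CPM in fear case, against 96.2, 97.1 and 103 CPM in control. For Fxr2 the estimate on the log2 scale was -0.0064 (SE 0.066, adjusted p = 0.992). Fxr2 had an SD of 8.70 CPM in fear case and 3.07 CPM in control, and fear case libraries fell on both sides of the controls.

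Cyfip1 (chromosome 7, 55841745 to 55932602, plus strand), also known as Sra-1, ranged from 64.6 through 73.4 to 82.2 CPM in fear case, against 64.2, 66.9 and 74.7 CPM in control. Cyfip1 had a log2 fold change of 0.12 (SE 0.074, 95% interval -0.033 to 0.27, adjusted p = 0.764). The 3 highest fear case libraries of Cyfip1 lay above all controls and the lowest sat at the bottom of the control range. Cyfip2 (chromosome 11, 46193850 to 46312859, minus strand), the form that prevails in brain, ranged from 1471 through 1588 to 1744 CPM in fear case, against 1361, 1484 and 1668 CPM in control. Cyfip2 had a log2 fold change of 0.085 (SE 0.069, 95% interval -0.058 to 0.23, adjusted p = 0.824). Cyfip2 was highest in fear case 1 and lowest in control 3, and the groups overlapped. It ranked 27 by CPM among the genes tested. Without fear case 1 its log2 fold change was 0.055. Per kilobase it exceeded Cyfip1 by 17.3 to 24.6 times in the single libraries, or by 30.1 to 42.8 times with the length of all annotated exons. With the transcript length it made up 95.4 ± 0.525% of the pair in fear case and 95.5 ± 0.473% in control.

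Caprin1 (chromosome 2, 103762941 to 103797649, minus strand) encodes an RNA granule protein that binds FMRP and the stress granule protein G3BP1. It ranged from 233 through 284 to 307 CPM in fear case, against 238, 261 and 290.4 CPM in control. The estimated log2 fold change of Caprin1 was 0.081 (SE 0.074, 95% interval -0.072 to 0.23, adjusted p = 0.849). Fear case 2 was the lowest library of Caprin1 and fear case 6 the highest, with the controls between them. The log2 fold change of Caprin1 was 0.13 without fear case 2 and 0.048 without fear case 6.

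**Figure D3:**
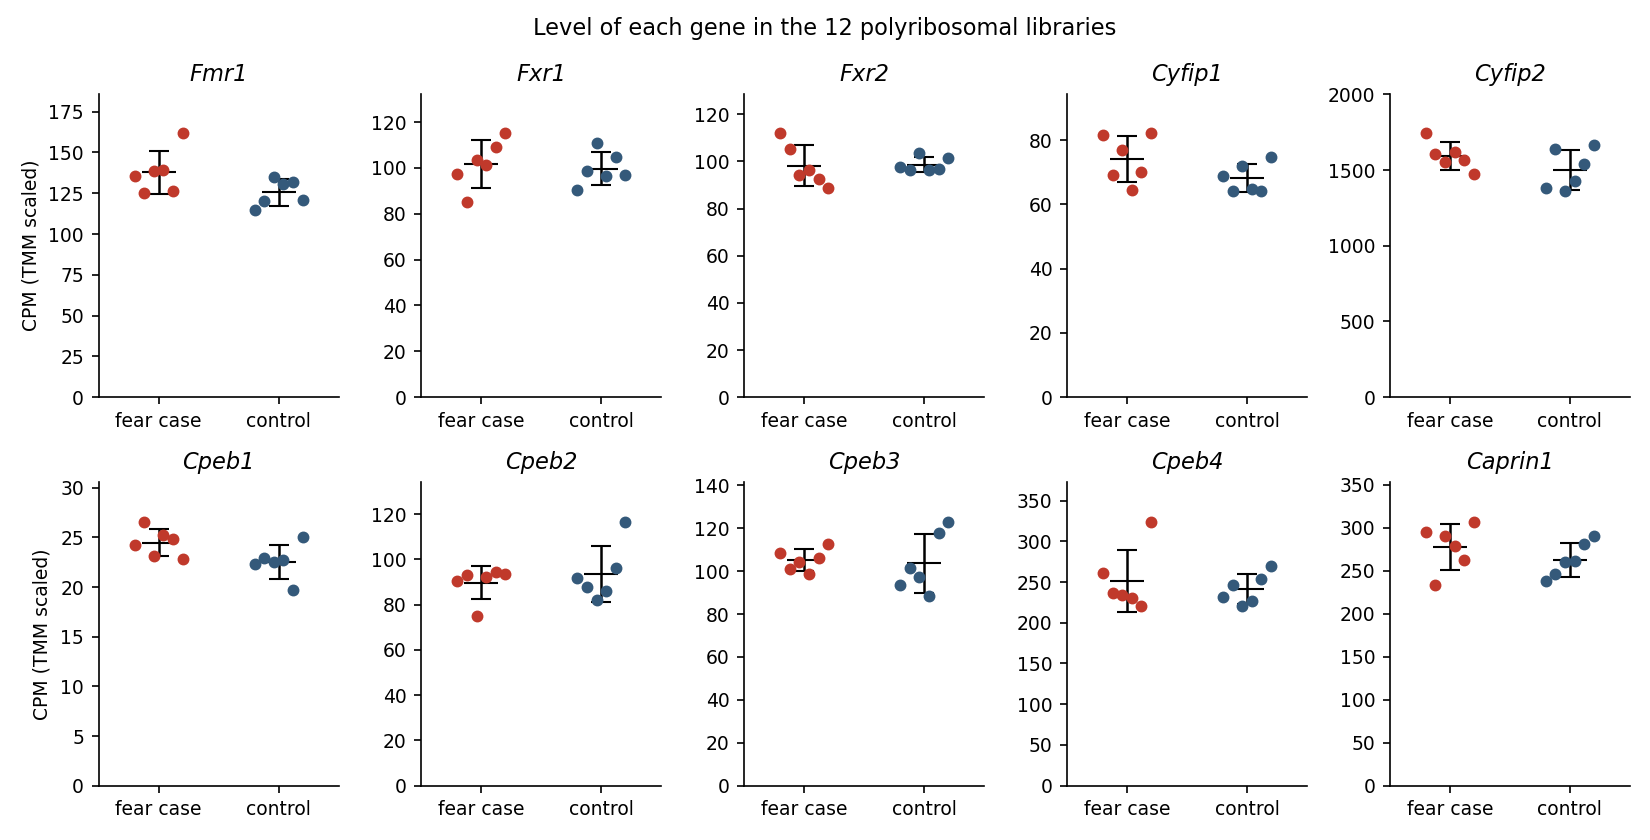
Each panel gives 1 gene, with the level in CPM on the y axis from 0, 1 point per library and the mean ± SD as black bars (n = 6 per group). The groups overlap in every panel, Cpeb4 has 1 high library in fear case at 324 CPM, and Cpeb2 has 1 high control at 117 CPM and 1 low fear case library at 74.8 CPM.

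Among the CPEB genes, Cpeb4 had the highest level per kilobase and Cpeb1 the lowest. Cpeb4 made up 50.7 ± 3.22% of the 4 genes in fear case and 50.2 ± 0.998% in control (SD, n = 6 each). Cpeb3 made up 22.9 ± 1.251% and 22.9 ± 1.34% in the same groups, Cpeb2 16.3 ± 1.53% and 17.3 ± 0.888%, and Cpeb1 10.1 ± 1.14% and 9.53 ± 0.926%. With the length of all annotated exons Cpeb4 held 51.7% to 60.97% over the 12 libraries.

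Cpeb1 (chromosome 7, 81347026 to 81455465, minus strand) is the founding member, which recruits the poly(A) polymerase Gld2 when phosphorylated. It ranged from 22.9 through 24.5 to 26.6 CPM in fear case, against 19.7, 22.6 and 25.003 CPM in control. For Cpeb1 the log2 fold change came to 0.12 (SE 0.084, 95% interval -0.056 to 0.29, adjusted p = 0.795). All 6 fear case libraries of Cpeb1 lay above the control mean, and 2 lay above every control. It had the fewest counts of the 10, with 432 in its lowest library.

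Cpeb2 (chromosome 5, 43233170 to 43289724, plus strand) slows elongation through eEF2 in published work on cultured cells. It ranged from 74.8 through 92.6 to 94.3 CPM in fear case, against 82.2, 89.8 and 117 CPM in control. Cpeb2 had an estimated log2 fold change of -0.059 (SE 0.083, 95% interval -0.23 to 0.11, adjusted p = 0.915). Both extremes were single libraries, fear case 3 at the low end and control 6 at the high end. Without control 6 the log2 fold change was 0.014, the only 1 of 21 alternative settings in which Cpeb2 was higher in fear case.

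Cpeb3 (chromosome 19, 37021291 to 37208601, minus strand) represses AMPA receptor transcripts and forms aggregates linked to the persistence of memory in mice. It ranged from 98.6 through 105 to 113 CPM in fear case, against 88.2, 99.3 and 123 CPM in control. In Cpeb3 the log2 fold change was 0.023 (SE 0.079, adjusted p = 0.975). The fear case values of Cpeb3 lay wholly inside the control range.

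Cpeb4 (chromosome 11, 31872211 to 31935634, plus strand) is the member whose own transcript rises with neuronal stimulation in other settings. It ranged from 220.4 through 236 to 324 CPM in fear case, against 221, 239 and 270.2 CPM in control. The log2 fold change of Cpeb4 was 0.057 (SE 0.085, 95% interval -0.12 to 0.23, adjusted p = 0.921). In Cpeb4 the fear case median lay below the control median and 1 library, fear case 6, lay above the rest. Without fear case 6 the log2 fold change was -0.031 (adjusted p = 0.953).

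Fear case 6 was the highest of the 12 libraries for Fmr1, Fxr1, Cyfip1, Cpeb4 and Caprin1 and the lowest for Fxr2. It is also the library with the greatest depth and Rn45s share and, among fear case libraries, the highest choroid plexus marker level. With Rn45s left out of the counts, the median log2 fold change of the 10 stayed at 0.069 and the lowest edgeR adjusted p was 0.719. TMM scaling hardly responds to such a row, so that fit cannot show what the Rn45s share did. The part of the depth and Rn45s share of this library in these values was not tested. By the mean log2 CPM of those markers, only fear case 6, at 4.34, lay within the control range of 3.59 to 4.67. The other fear case libraries lay at 2.78 or less, so marker level and group cannot be fully told apart in this design. With the choroid plexus marker level as a covariate, 0 of 10 genes passed (lowest adjusted p 0.596, for Cyfip1). The median log2 fold change of the 10 was then 0.12, and 3 of 10 had an unadjusted p under 0.05, against 7.47% of all genes in that fit. These were Fmr1 at 0.24, Cyfip1 at 0.25 and Cpeb4 at 0.22. Fxr1 stood at 0.17, Caprin1 at 0.18 and Cpeb3 at 0.080 in that fit, also further above 0 than without the covariate. Cyfip2 at 0.027 and Cpeb1 at 0.029 stood nearer to 0, and Fxr2 at -0.056 and Cpeb2 at -0.057 were below it. The pooled within-group SD of log2 CPM was 0.094 for Fxr2 to 0.16 for Cpeb4, against a median of 0.16 over the 9362 genes with at least 10 CPM.

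**Figure D4:**
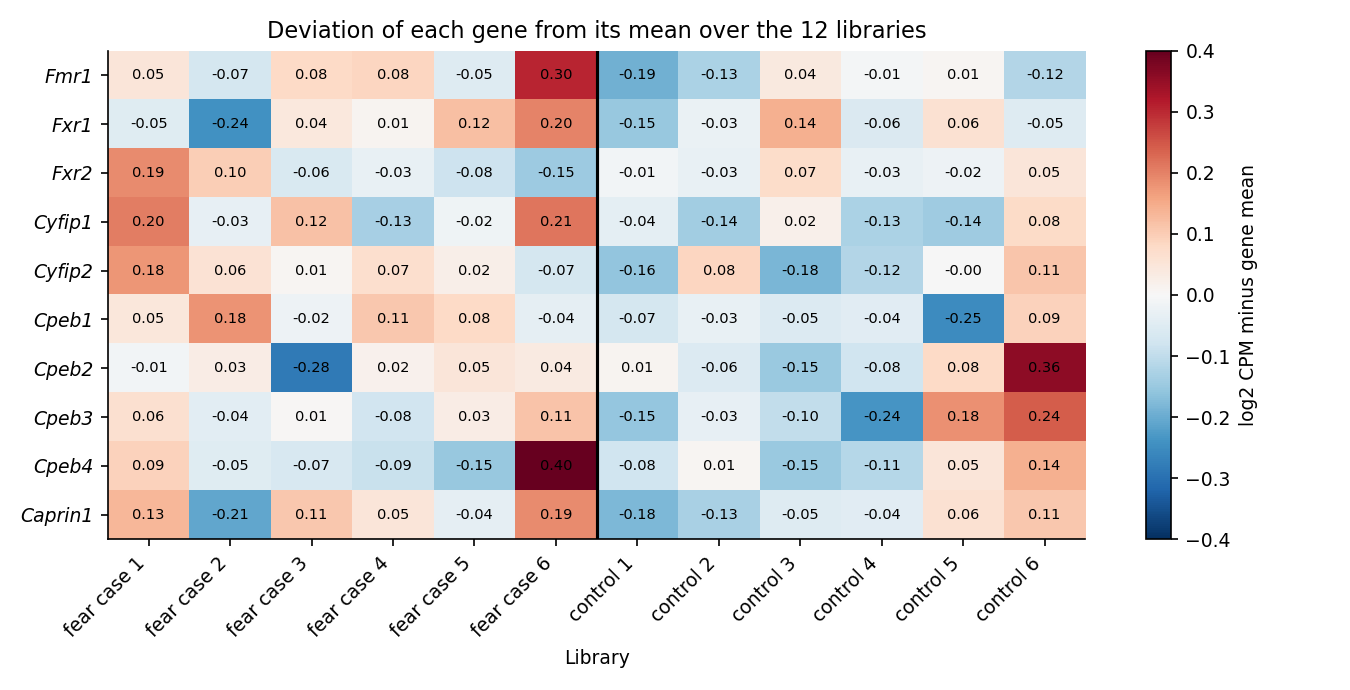
Rows are the 10 genes and columns the 12 libraries, fear case on the left, and each cell gives log2 CPM minus the gene's mean over the libraries. Fear case 6 holds the largest positive value, 0.40 for Cpeb4, and control 6 the next, 0.36 for Cpeb2, while most cells of both groups lie within 0.2 of 0.

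Ratios of counts within a library need no scaling between libraries, and exact two-sided permutation tests were run on 8 of them. None passed: the exact permutation p ranged from 0.0758 to 0.857, the p adjusted over the 8 ratios from 0.606 to 0.857, and the smallest p this design allows is 0.00216. The largest shift relative to its spread was that of Fxr1 to Fmr1. Its log2 ratio was -0.44 ± 0.12 in fear case and -0.33 ± 0.056 in control (SD, n = 6 each), a difference of -0.10 with a 95% interval of -0.21 to 0.015 (exact permutation p = 0.0758). In 4 of 6 fear case libraries this ratio lay below every control, and in 1, fear case 5, it lay above every control. Without fear case 5, the library that went the other way, the difference was -0.15 (exact p = 0.00649, adjusted p = 0.0519). That was the lowest exact p of 14 settings, of which the highest was 0.154.

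The log2 ratio of Fxr2 to Fmr1 was -0.49 ± 0.23 in fear case and -0.35 ± 0.091 in control, a difference of -0.14 (95% interval -0.36 to 0.063, exact permutation p = 0.175, n = 6 each), and 4 of 6 fear case libraries lay below every control. Without fear case 6 that difference was -0.067. The ratio of Cyfip1 to Cyfip2 was -4.43 ± 0.17 in fear case and -4.46 ± 0.16 in control, a difference of 0.029 (95% interval -0.18 to 0.25, exact permutation p = 0.753, n = 6 each). Relative to Cpeb4, the differences were 0.072 for Cpeb1, -0.10 for Cpeb2 and -0.015 for Cpeb3, with intervals that all lay between -0.32 and 0.31. Without fear case 6 these 3 differences were 0.17, -0.038 and 0.041, and without control 5 that of Cpeb1 was 0.020. Relative to Fmr1, Caprin1 differed by -0.054 (95% interval -0.18 to 0.066) and Cyfip1 by -0.015 (95% interval -0.20 to 0.17). Without control 6 the difference of Caprin1 was -0.014.

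**Figure D5:**
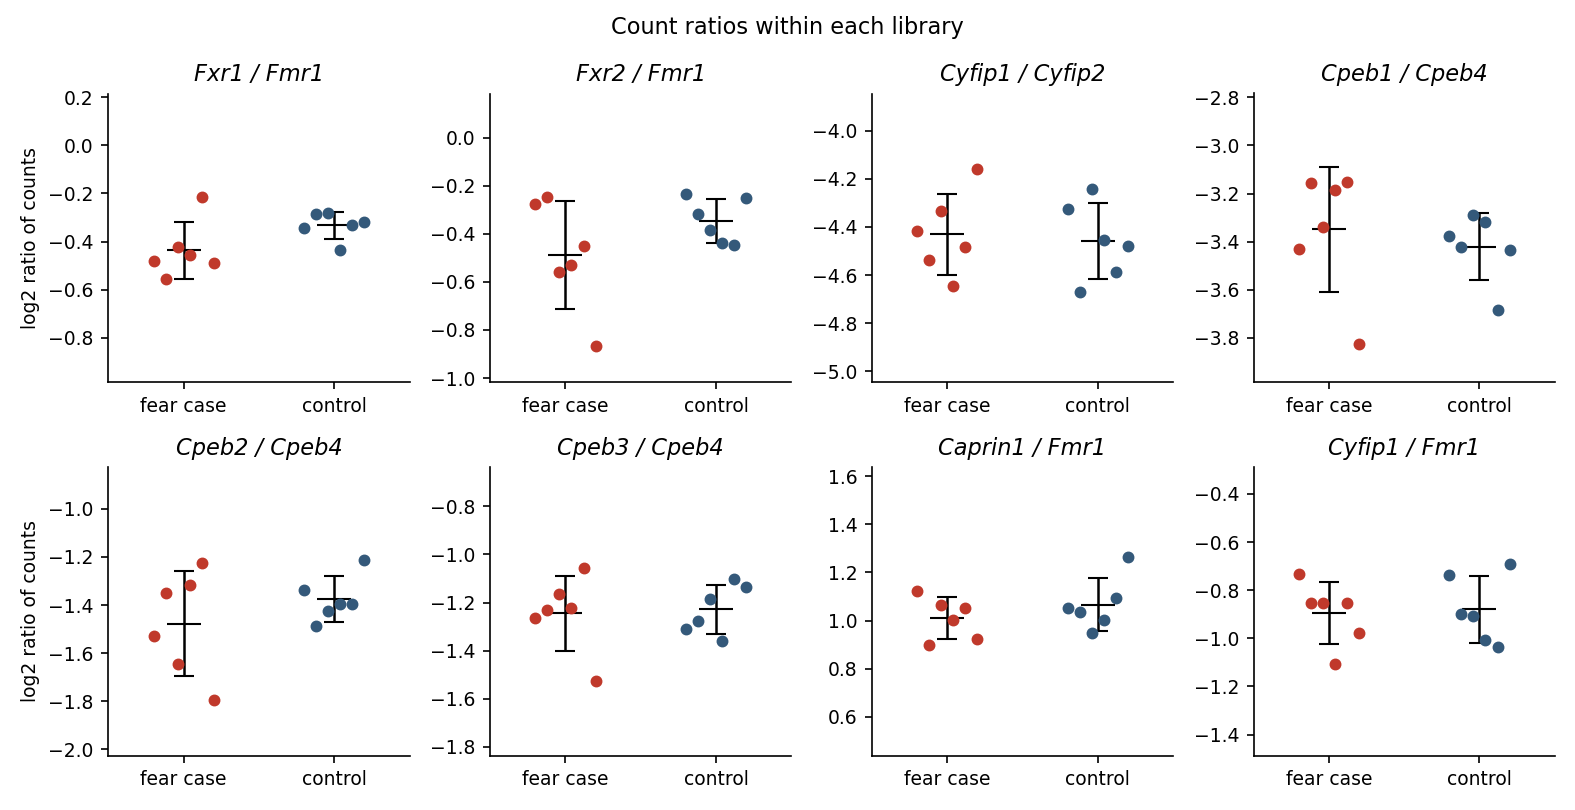
Each panel gives the log2 ratio of the counts of 2 genes on the y axis, with 1 point per library and the mean ± SD as black bars (n = 6 per group), on axes of equal height. The Fxr1 to Fmr1 panel shows 4 fear case points below all controls and 1 above them, and the groups overlap in all 8 panels.

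Reads were 40 bases long, and no stretch of 40 bases was shared between any 2 of the 10 transcripts. Only Fxr1 shared such stretches with a gene elsewhere in the genome, the pseudogene Gm17795, over 1.98% of its transcript. Exons of Cyfip1 overlap those of Nipa2, which with Gm44616 covers 21.7% of its transcript, exons of Fxr1 those of Dnajc19, and exons of Cpeb2 and Cpeb3 those of Gm7854 and A330032B11Rik, each on the opposite strand. The sources used here do not say whether strand was used in counting, so reads of those overlaps cannot be assigned with certainty. That limit also holds for the level of Cyfip1 per kilobase, its ratio to Cyfip2 and its share of the pair. Nipa2 had 213 to 708 counts beside 1211 to 3297 for Cyfip1, and Dnajc19 had 412 to 1134 beside 1776 to 4620 for Fxr1. Gm7854 had 0 to 18 counts beside 1430 to 3747 for Cpeb2, and A330032B11Rik 6 to 34 beside 1755 to 4515 for Cpeb3.

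Genes that work with these regulators were counted next. Of 107 distinct genes in 7 lists, all of them tested, 1 rose (Arc), 0 fell and 106 did not pass with edgeR, against 0.0481% of all genes called higher and 0.0549% called lower. The median log2 fold change of the 107 was 0.031, and 7 had an unadjusted p under 0.05, where 7.14% of all genes did. DESeq2 called 2 of them, Arc and Nufip1, against 0.433% of all genes, and limma-voom 1, against 0.0824%.

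Of 26 FMRP partners and RNA granule proteins, 0 passed, and the median was 0.063. Nufip1, a nuclear partner of FMRP that also acts in assembly of small nucleolar ribonucleoproteins, averaged 24.4 ± 1.66 CPM in fear case and 18.9 ± 1.72 CPM in control (SD, n = 6 each). All 6 fear case libraries of Nufip1 lay above all controls, and the log2 fold change was 0.37 (SE 0.090, edgeR adjusted p = 0.161). The lowest fear case library stood at 21.4 CPM and the highest control at 21.1 CPM. Groups lay apart in this direction for 0.268% of all genes tested. Nufip1 was named for the lowest p of its list, a choice that favours such genes. DESeq2 gave an adjusted p of 0.0227 for it, within a range of 0.0227 to 0.573 over 21 alternative settings. Stau2, a double-stranded RNA-binding protein of dendritic transport granules, stood at 0.16 on the log2 fold change scale (adjusted p = 0.601). Purb, a single-stranded nucleic acid-binding protein of those granules, had the highest CPM of this list, at 991 ± 152 CPM in fear case and 950.1 ± 128 CPM in control (log2 fold change 0.061, adjusted p = 0.927).

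Of 8 genes for the WAVE complex and its activator Rac, 0 passed, and the median was 0.030. Nckap1, the subunit that pairs with CYFIP, averaged 1258 ± 24.1 CPM in fear case and 1145 ± 44.7 CPM in control. The groups did not overlap for Nckap1, and the log2 fold change was 0.14 (SE 0.057, adjusted p = 0.613). Nckap1 too had the lowest p of its list, and 0.268% of all genes tested lay wholly higher in fear case. Rac1, the small GTPase that binds CYFIP, stood at -0.096 on the log2 fold change scale (adjusted p = 0.793).

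Of 18 genes of cytoplasmic polyadenylation and CPEB partners, 0 passed, and the median was -0.0016. Ptbp1, a polypyrimidine tract-binding protein, stood at -0.26 on the log2 fold change scale (adjusted p = 0.522), Papd5, a non-canonical poly(A) polymerase, 0.13 (adjusted p = 0.764) and Cnot7, a deadenylase subunit, 0.052 (adjusted p = 0.918). Of 15 genes of the eIF4E cap-binding axis, 0 passed, and the median was 0.011. Eif4ebp1, an eIF4E-binding repressor of low level here, averaged 1.72 ± 0.359 CPM in fear case and 2.65 ± 0.333 CPM in control, and the log2 fold change was -0.62 (SE 0.23, adjusted p = 0.557). Mknk2, a kinase of eIF4E, stood at -0.24 (adjusted p = 0.618) and Eif4g2, a relative of the scaffold eIF4G, at 0.026 (adjusted p = 0.952).

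Of 10 genes for kinases, phosphatases and receptor-side proteins that act on FMRP, 0 passed, and the median was 0.043. Homer1, the scaffold of group I metabotropic glutamate receptors, had a log2 fold change of 0.12, and Ppp2cb, a catalytic subunit of the phosphatase PP2A that dephosphorylates FMRP, of 0.12, both with an adjusted p of 0.742. Its sister subunit Ppp2ca had the highest CPM of this list and stood at -0.040 (adjusted p = 0.932).

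Among transcripts known as FMRP targets, 1 of 20 rose, 0 fell, and the median was 0.014. The 1 was Arc, which is also an immediate early gene, at 153 ± 24.02 CPM in fear case and 87.6 ± 13.6 CPM in control (log2 fold change 0.80, SE 0.10, adjusted p = 0.000356). Map1b, a microtubule-binding protein and one of the first FMRP targets described, averaged 3475 ± 666 CPM in fear case and 3089.6 ± 586 CPM in control (log2 fold change 0.17, adjusted p = 0.795). Without fear case 1 the value of Map1b was 0.094, and without control 6 it was 0.26. Kcnd2, a potassium channel subunit, stood at 0.15 (adjusted p = 0.742), at 0.072 without fear case 6 and at 0.19 without control 1. Of 12 transcripts known as CPEB targets, 0 passed, and the median was 0.076. Map2, a dendritic microtubule protein, stood at 0.16 (adjusted p = 0.716) and the AMPA receptor subunit gene Gria2 at 0.18 (adjusted p = 0.742). Without fear case 6 the value of Gria2 was 0.11, and without fear case 1 it was 0.24. Camk2a, a dendritic kinase whose polyadenylation CPEB1 controls, stood at -0.013 (adjusted p = 0.982).

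The genes whose pattern over the 12 libraries was most like that of Fmr1 were Usp14, Dld and Ptpn4. They were the closest of 4098 genes with at least 10 CPM and an SD within 25% of that of Fmr1. The root mean square difference of centred log2 CPM was 0.041, 0.045 and 0.046 in that order, against an SD of 0.13 for Fmr1 itself. Their log2 fold changes were 0.11, 0.17 and 0.13, and none passed (adjusted p 0.746, 0.585 and 0.735). The genes were picked on the same 12 libraries, so fold changes near that of Fmr1 follow from the choice. The largest deviation of Fmr1 from its mean was 0.30, in fear case 6.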

How the data were processed

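Each library has 1 deposited file of raw counts, as whole numbers by gene symbol. Per the labels' protocols, hippocampal homogenates were cleared, spun for 4 h through 1 M sucrose, and libraries were made from the pellet with a total RNA kit and read as 40-base pairs. Per the submitters' processing notes, cutadapt, TopHat, Bowtie and HTSeq were used with mm10 (versions, annotation and strand setting: not given in the sources used here). Rows of the counter's summary were dropped. Of the counts on genes, on no gene and ambiguous together, the share on no gene was 25.5% to 33.3%. The ambiguous share was 0.453% to 0.550%. Alignments that were not unique, 67.8 M to 115 M per library, were also dropped and lie outside these shares.

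Counts were fitted in R 4.3.3 with edgeR 4.0.16 (filterByExpr with minimum count 10 and total 15, TMM, glmQLFit and glmQLFTest, no covariate, Benjamini-Hochberg over 14564 genes, threshold 0.05); the procedure was tested on simulated data. The SE was taken as the size of the log2 estimate over the root of its F statistic; log2 CPM uses a prior count of 2 and ratios a pseudocount of 0.5. Intervals of the ratios are shifts not rejected by the permutation test. At the median depth 1 CPM is 21.6 counts. No 2 libraries of a group agreed within counting noise. Of the symbols tested, 14030 were found in GENCODE vM21.

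The 10 genes and the lists were chosen with earlier results of these data known. Genes named from each list are the 2 with the lowest p and the 1 with the highest CPM; Nipa2 and the other overlapping genes were named by position. Alternatives were DESeq2 1.42.0, limma-voom (limma 3.58.1), 2 scalings, 2 filters, Rn45s left out, a choroid plexus covariate, replicate number as a block, and each library left out.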

Additional observations from a re-analysis of the deposited data

Results flagged for a closer look

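Over 41 values (33 named genes and 8 ratios) in both groups, 82 sets of 6 libraries were examined for a library that stands apart from the other 5 by Dixon's criterion for 6 values, which chance meets in about 1 of 20 sets. It was met in 6, of which 1 concerned the level of a regulator. Cpeb2 stood at 74.8 CPM in fear case 3, below the next library at 90.5 CPM. The log2 ratio of Cpeb1 to Cpeb4 was -3.68 in control 5, with the next at -3.43. Among the partner genes, Nufip1 stood at 21.4 CPM in fear case 5 and the next at 24.4 CPM. Papd5 stood at 53.8 CPM in fear case 5 and the next at 64.5 CPM. Purb stood at 1290 CPM (1289.7) in fear case 6, above the next at 977 CPM. Jun, the AP-1 subunit that had the highest CPM of the immediate early genes listed, stood at 196 CPM in fear case 1 and the next at 164 CPM, with a log2 fold change of -0.0053 between the groups (edgeR adjusted p = 0.995).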

How the results depend on the processing

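None of the 10 regulators passed in any of 21 alternative settings, and the lowest adjusted p was 0.587, for Fmr1 without fear case 2. Fmr1, Cyfip1, Cyfip2, Cpeb1 and Caprin1 kept a positive log2 fold change in all 21, of 0.082 to 0.24, 0.087 to 0.25, 0.027 to 0.12, 0.029 to 0.15 and 0.048 to 0.18 in that order. With each library left out in turn the log2 fold change ranged from -0.0091 to 0.079 for Fxr1, -0.050 to 0.021 for Fxr2, -0.092 to 0.014 for Cpeb2, -0.016 to 0.078 for Cpeb3 and -0.031 to 0.092 for Cpeb4. It also changed sign for Purb (-0.030 to 0.10), Cnot7 (-0.0027 to 0.090), Camk2a (-0.041 to 0.014) and Jun (-0.065 to 0.047), and for Eif4g2 with the choroid plexus covariate (-0.021). None of these passed in any setting, and the cause was not tested. Differences in log2 ratio that changed sign ranged from -0.024 to 0.073 for Cyfip1 to Cyfip2, -0.053 to 0.041 for Cpeb3 to Cpeb4 and -0.048 to 0.027 for Cyfip1 to Fmr1. The others kept their sign, at -0.15 to -0.081 for Fxr1 to Fmr1, -0.19 to -0.067 for Fxr2 to Fmr1, 0.020 to 0.17 for Cpeb1 to Cpeb4, -0.15 to -0.038 for Cpeb2 to Cpeb4 and -0.078 to -0.014 for Caprin1 to Fmr1.

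The number of genes called in all was 15, and it was 63 with DESeq2, 37 without a filter, 5 with the choroid plexus covariate and 9 to 128 with a library left out; it was 128 without fear case 6 and 9 without fear case 2 or control 3. Of the partner and target genes DESeq2 called 2 in place of 1. Between same-numbered libraries the correlation of deviations was -0.46 to 0.28 over 9362 genes, best with its own number for 2 of 6. Such correlations cannot show whether the numbers mark a pairing. With the replicate block 18 genes and 0 regulators were called. The Fxr1 to Fmr1 difference of -0.10 then had an exact sign-flip p of 0.0938. How far depth limits each regulator was not compared; Cpeb1 had the fewest counts.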

Other observations

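Of 3109 genes whose transcript holds a cytoplasmic polyadenylation element in the last 150 bases of the 3′ untranslated region, 4 were called between fear case and control with edgeR (0.129%) and the median log2 fold change was 0.010. Of 9397 genes without one, 8 were called (0.0851%) and the median was -0.0076. The difference between these 2 sets was not tested.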
